A study of Mus musculus with 2 samples.

Results

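The genes described here belong to the hypoxia-inducible factor 1 (HIF1) pathway: the HIF1 subunit genes Hif1a and Arnt, the oxygen-sensing prolyl hydroxylase genes Egln1, Egln2 and Egln3, the ubiquitin ligase gene Vhl, and the target genes outside glycolysis Bnip3, Bnip3l, Vegfa and Ddit4. These 10 genes were chosen from the pathway as genes that were low with triptolide in these same arrays, so their direction is a description of the choice and supports nothing by itself. All probe sets annotated to exactly 1 of the symbols were taken, which gave 20 probe sets of 9 genes, out of 34945 probe sets of 18193 genes with 1 symbol. Bnip3l had no such probe set. Mouse primary T cells, purified and cultured for 18 h under 95% air and 5% CO2, were activated through CD3 and CD28 with antibodies and given triptolide at 50 ng/ml (1 array), or received the same stimulation without triptolide (1 array). Total RNA was hybridised to Affymetrix expression arrays. Neither the length of the triptolide exposure nor the number of animals is given in the sources used here, and no unstimulated cells were compared. With 1 array per group there is no test, SE or p-value, and every fold change below compares these 2 arrays.

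HIF1 is a pair of proteins, an oxygen-regulated alpha subunit encoded by Hif1a and a constant partner encoded by Arnt. When oxygen is present, the EGLN enzymes hydroxylate prolines of the alpha subunit, the VHL protein binds the hydroxylated form, and the subunit is degraded. When it escapes, the pair binds short DNA motifs and switches on genes of glucose use, blood vessel growth, mitochondrial removal and the control of growth. In T cells, HIF1A also accumulates in normal oxygen after stimulation of the antigen receptor, through mTOR signalling. Triptolide is a plant diterpenoid that binds the XPB subunit of the general transcription factor TFIIH.

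Signals are MAS5 intensities in arbitrary units, and log2 ratios are triptolide over stimulated. Signals under 118, the 95th percentile of probe sets of chemosensory receptor genes on the array where it was higher, were treated as background and set to that floor, and a gene or probe set was called detected where at least 1 array lay above it. A gene's ratio is that of its brightest probe set. The median signal of all 45037 probe sets was 87.6 with triptolide and 95.5 without. The median log2 ratio of the 10968 detected genes was -0.16. Of these genes, 12.5% were at least 2-fold lower with triptolide and 5.63% at least 2-fold higher. The lower genes made up 68.9% of such calls as deposited, 53.6% after median centring, 50.9% after quantile normalization, 77.7% after scaling on housekeeping genes, and 79.4% after that scaling without Pgk1. Of the T cell marker genes, 9 of 9 with a probe set were detected, with a summed signal of 39312 with triptolide and 55451 without. They moved apart: Cd8a, Cd28 and Cd4 had log2 ratios of -1.60, -1.55 and -1.28, and the CD3 genes Cd3d, Cd3g and Cd3e of -0.23, 0.18 and 0.46. Fewer T cells and less RNA per cell cannot be told apart in such bulk samples. Markers of other cell types had lower sums: summed signals were 1344 with triptolide and 1336 without for 5 B cell genes (4 detected), 1180 and 1064 for 8 myeloid genes (5 detected), 505 and 329 for 4 endothelial genes (1 detected), 1012 and 509 for 3 natural killer cell genes (1 detected), 537 and 390 for 5 platelet genes (1 detected), and 118 and 186 for 3 erythroid genes (none detected). Higher with triptolide were Klrd1 (965.7 against 488.7), Cd79a (673.7 against 349.3), Itga2b (406.7 against 190.9), Adgre1 (268.6 against 167.3) and Lyz2 (259.5 against 72.2). Lower were Cd22 (178.8 against 369.2), Ms4a1 (138.6 against 227.1) and S100a8 (42.2, under the floor, against 177.8). All of these were picked after their values were seen. Log2 ratios were below 0 in 3 of the 4 detected B cell genes and 1 of the 5 detected myeloid genes. Pax5, Cd14, Itgam, Cdh5 and Ncr1 were under the floor on both arrays. The part of such cells in the results below was not tested.

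Of the 9 HIF pathway genes with a probe set, 5 were at least 2-fold lower with triptolide and none was at least 2-fold higher, against the 12.5% and 5.63% of all detected genes. The 5 were the oxygen sensors Egln1 and Egln3 and the targets Bnip3, Vegfa and Ddit4. They were between 3.33-fold and 4.48-fold lower. Hif1a, Arnt, Vhl and Egln2 had log2 ratios between -0.94 and -0.33 and stayed within 2-fold on their brightest probe sets, so the description of the genes as low holds less for them. On the brightest probe sets, values split into these sets with a gap. Egln3, at -1.74, was the closest to the 2-fold limit among the genes past it. Vhl, at -0.94, was the closest on the other side. The gap rests on the choice of probe sets. Hif1a lay inside it, at -1.47, by the median over its probe sets, and Arnt, at -1.01, on its probe set 1421721_a_at. The median of the 9 genes was -1.74. All 9 ratios were below 0 on the brightest probe sets, as were 60.2% of those of all detected genes. Another Arnt probe set was above 0, at 0.82. At least 4-fold lower were 3 genes (Egln1, Bnip3 and Ddit4), against 1.36% of all. At limits of 1.5-fold and 3-fold, 7 and 5 of the 9 genes were lower, against 26.9% and 3.53%. Among the 6153 genes whose brighter signal was at least 4 times the floor, which hold 8 of the 9, 15.8% were lower and 6.86% higher by at least 2-fold. All 9 were above the floor on both arrays, so none of their folds is a bound.

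**Figure D1:**
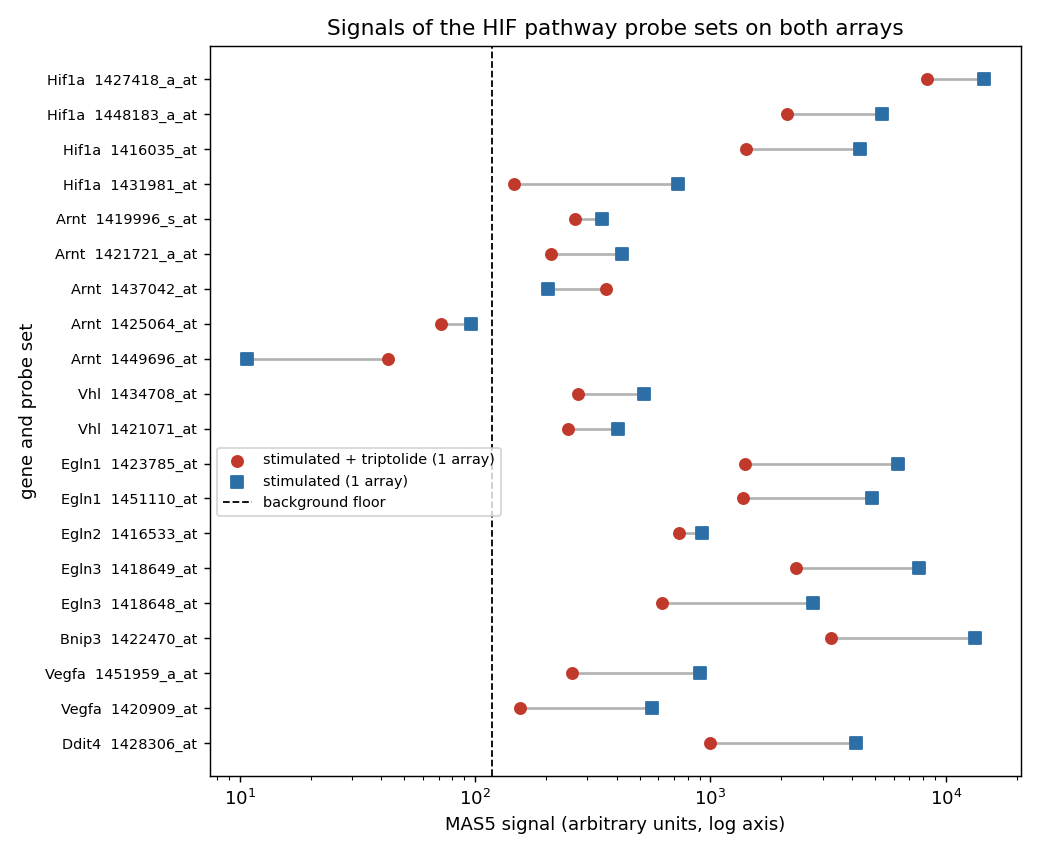
MAS5 signal (log axis, arbitrary units) of each of the 20 probe sets, with triptolide (red circles) and without (blue squares), 1 array each; the dashed line is the background floor of 118. The red circle lies left of the blue square in 17 of the 18 probe sets that reach the floor, the exception being an Arnt probe set, and among these 18 the lines are longest for Egln1, Egln3, Bnip3, Vegfa, Ddit4 and the dimmest Hif1a probe set.

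Hif1a, the gene of the oxygen-regulated subunit, had 4 probe sets, all lower with triptolide but by different amounts. The brightest, 1427418_a_at, had a signal of 8357.4 with triptolide and 14488.5 without (1.73-fold lower). Probe set 1448183_a_at had 2124.5 with triptolide and 5336.4 without (2.51-fold lower). The dimmer probe sets gave larger differences. For 1416035_at the signals were 1410.3 with triptolide and 4309.7 without (3.06-fold lower). The dimmest, 1431981_at, came close to the floor with triptolide, at 146.0, against 724.6 without (4.96-fold lower). The log2 ratios thus ran from -2.31 to -0.79, the dimmer the probe set the lower, and spanned 1.52. Over 3733 genes, the SD between the 2 brightest probe sets of the same gene was 0.49. That SD is taken per probe set, and a range over 4 probe sets is usually wider, so the values are unlike measures. Hif1a was under the 2-fold limit on its brightest probe set and past it by the median of all 4 (-1.47). Across all detected genes, 18.3% had a ratio as low as that of the brightest Hif1a probe set.

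Arnt, the gene of the constant partner, was dim and its probe sets went opposite ways. Probe set 1419996_s_at had 266.5 with triptolide and 344.6 without (log2 ratio -0.37). Probe set 1421721_a_at had 209.7 with triptolide and 421.9 without (2.01-fold lower). On 1437042_at the signal was higher with triptolide, at 361.7, than without, at 204.6 (log2 ratio 0.82). The other 2 Arnt probe sets were under the floor on both arrays. No direction is therefore given for Arnt, the one gene of the 9 whose detected probe sets disagreed in sign.

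The 3 prolyl hydroxylase genes did not move alike. EGLN1 (PHD2) is the main enzyme that marks HIF alpha subunits in normal oxygen, EGLN3 (PHD3) is strongly induced by HIF itself in many cells, and EGLN2 (PHD1) is generally not induced by hypoxia. Egln1 had a signal of 1397.5 with triptolide and 6267.2 without on 1423785_at (4.48-fold lower), and 1381.6 against 4862.1 on 1451110_at (3.52-fold lower). Its log2 ratio of -2.16 was the lowest of the 9 genes, and 0.957% of detected genes lay at or below it. Egln3 had 2313.9 with triptolide and 7715.0 without on 1418649_at (3.33-fold lower), and 623.5 against 2723.6 on 1418648_at (4.37-fold lower). Both Egln1 and both Egln3 probe sets were thus more than 2-fold lower. Egln2, on its single probe set, had 733.4 with triptolide and 925.0 without (log2 ratio -0.33), and 39.4% of detected genes lay at or below that.

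Vhl, which encodes the substrate receptor of the ubiquitin ligase for hydroxylated HIF alpha, was lower on both probe sets and past 2-fold on neither. On 1434708_at the signal was 272.4 with triptolide and 522.6 without (log2 ratio -0.94). On 1421071_at it was 248.0 with triptolide and 405.0 without (log2 ratio -0.71). Of the other genes of this ligase, the adaptor genes Elob and Eloc had log2 ratios of 0.24 and -0.11, with 2 of 4 Eloc probe sets above 0. Rbx1, the RING subunit gene, had one of -0.05 with both signals close to the floor. The cullin gene Cul2, at -0.70, was close to the second Vhl probe set, and its own second probe set was at -0.24.

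The target genes with a probe set of 1 symbol were lower by 3.50-fold to 4.17-fold. Bnip3 encodes a mitochondrial outer membrane protein that recruits the autophagy machinery. It had 3268.3 with triptolide and 13371.8 without, a 4.09-fold difference on its single probe set. Ddit4 (REDD1), which restrains mTORC1 and is also induced by glucocorticoids, ATF4 and p53, had 999.6 with triptolide and 4169.2 without (4.17-fold lower, single probe set). Vegfa, the gene of the vascular endothelial growth factor, was dimmer. Its probe set 1451959_a_at had 257.8 with triptolide and 902.5 without (3.50-fold lower), and 1420909_at had 154.9 against 567.2 (3.66-fold lower). In Vegfa the probe sets differed by 0.06 (log2), although the second came close to the floor with triptolide.

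Bnip3l (NIX), a relative of Bnip3 with a like role in mitochondrial removal, was measured by 3 probe sets that are annotated to Bnip3l and to the pseudogene Bnip3l-ps together, so their signal cannot be given to 1 of them and they entered no count. These probe sets read 5712.0 with triptolide and 9777.7 without on 1416922_a_at, 3090.6 against 4739.6 on 1416923_a_at, and 1247.3 against 3401.7 on 1448525_a_at. The log2 ratios were -0.78, -0.62 and -1.45, so 1 of the 3 passed 2-fold.

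Several probe sets per gene give some view of technical precision, though not of the spread between cultures. Of the 6 genes with several detected probe sets, 5 were lower on all of them, against 41% of 4829 such genes on the array. In 3 of the 6 (Egln1, Egln3 and Vegfa) all were at least 2-fold lower, against 4.7% of such genes. The 2 Egln1 probe sets are annotated to the same sequence record, and so are the 2 of Egln3, so their agreement says less. Counted by probe set, 12 of the 18 detected ones were at least 2-fold lower, against 12.8% of the 19209 detected probe sets on the array. None was at least 2-fold higher, against 5.69%. An Arnt probe set was higher by less, and the 2 under the floor were left out. Since the genes were picked as low in this same comparison, nothing is read from these shares.

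**Figure D2:**
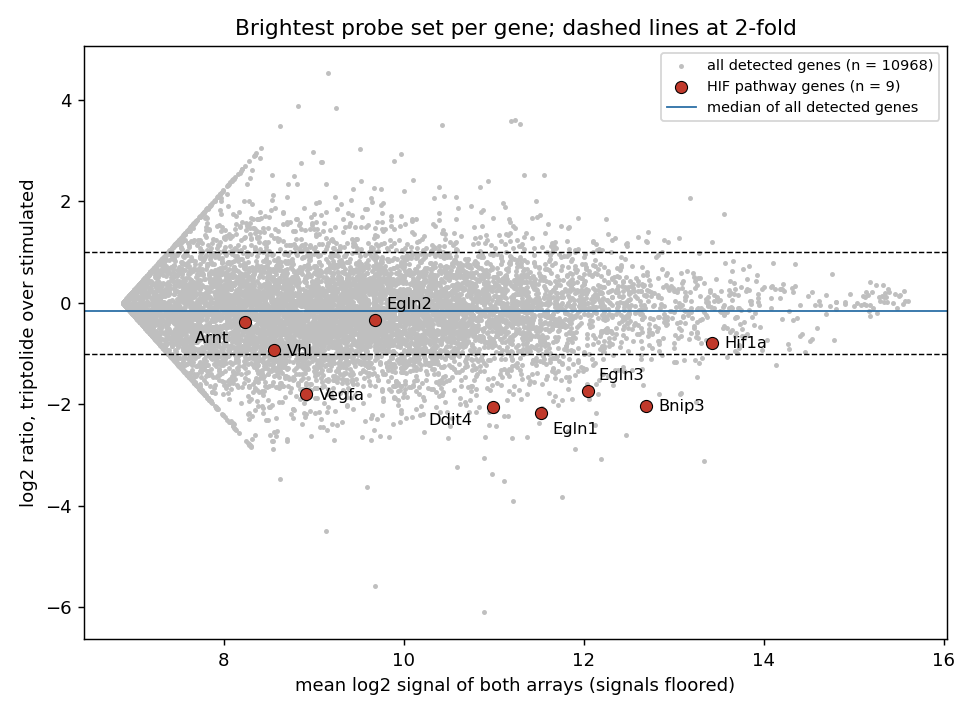
Log2 ratio of triptolide over stimulated against the mean log2 signal of both arrays, for the brightest probe set of each of 10968 detected genes (grey) and of the 9 HIF pathway genes (red, named); dashed lines mark 2-fold and the blue line the median of all detected genes, -0.16. Egln1, Egln3, Bnip3, Vegfa and Ddit4 lie at the lower edge of the grey cloud, while Arnt and Egln2 lie within it; the slanted edges on the left come from the floor.

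HIF1 binds the core letters ACGTG or GCGTG. The windows of 250 bases before to 50 after annotated starts (RefSeq, GRCm38.p6) were searched for both, on both strands, and 11 windows of 9 of the genes were found; Bnip3l was not in the table. At least 1 match stood in 9 of the 11 windows, against 43.8% of 32851 windows of all genes, and in 8 of the 9 genes, against 46.7% of 27025 genes. ACGTG alone was in 7 of the 11 windows, against 19.6% of all windows. A palindromic CACGTG, which other factors such as MYC and USF also bind, holds ACGTG on both strands and was counted as 2 matches. It was present in 3 of the 11 windows, against 7.15% of all windows. These are short letters in windows with GC contents between 49.3% and 86%, and a match is not a binding site. The windows of 4 of the 5 genes that were over 3-fold lower are shown. These windows hold between 1 and 5 matches each. Left out is Vegfa, which had 2 windows, 1 of them without a match. Capitals mark each match, which reads CACGT or CACGC where it lies on the other strand.
Egln1 promoter window (GRCm38.p6, chr8:124949205-124949504, minus strand): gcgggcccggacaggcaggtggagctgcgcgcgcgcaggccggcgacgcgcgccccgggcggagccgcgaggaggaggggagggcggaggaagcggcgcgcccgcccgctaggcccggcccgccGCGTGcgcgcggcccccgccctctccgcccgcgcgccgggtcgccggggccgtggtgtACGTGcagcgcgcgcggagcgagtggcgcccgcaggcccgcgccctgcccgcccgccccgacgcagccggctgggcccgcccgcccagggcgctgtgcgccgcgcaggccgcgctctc
Egln3 promoter window (GRCm38.p6, chr12:54203825-54204124, minus strand): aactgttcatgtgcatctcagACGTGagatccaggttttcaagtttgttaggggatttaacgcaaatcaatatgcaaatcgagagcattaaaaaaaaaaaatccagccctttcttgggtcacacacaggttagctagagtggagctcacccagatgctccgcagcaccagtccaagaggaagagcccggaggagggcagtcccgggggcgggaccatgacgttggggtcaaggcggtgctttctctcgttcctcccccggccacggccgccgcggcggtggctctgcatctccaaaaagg
Bnip3 promoter window (GRCm38.p6, chr7:138909457-138909756, minus strand): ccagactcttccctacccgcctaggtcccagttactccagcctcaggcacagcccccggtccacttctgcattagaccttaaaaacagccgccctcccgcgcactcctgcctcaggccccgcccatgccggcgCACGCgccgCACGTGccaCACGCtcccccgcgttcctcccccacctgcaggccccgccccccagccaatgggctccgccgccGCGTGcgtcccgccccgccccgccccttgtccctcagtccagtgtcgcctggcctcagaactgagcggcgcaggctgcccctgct
Ddit4 promoter window (GRCm38.p6, chr10:59951721-59952020, minus strand): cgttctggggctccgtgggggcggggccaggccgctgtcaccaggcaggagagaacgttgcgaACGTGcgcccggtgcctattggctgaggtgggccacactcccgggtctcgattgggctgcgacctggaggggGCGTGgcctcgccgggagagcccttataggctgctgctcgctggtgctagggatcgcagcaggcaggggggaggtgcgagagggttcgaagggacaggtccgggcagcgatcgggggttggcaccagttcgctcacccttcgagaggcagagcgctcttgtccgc
The Bnip3 window held 5 matches, with a CACGTG that begins 108 bases before the start, and 1.66% of all windows held at least as many. In Egln1 a GCGTG began 126 bases and an ACGTG 68 bases before the start. In Ddit4 an ACGTG began 187 bases and a GCGTG 115 bases before it, and in Egln3 a single ACGTG began 229 bases before it. Vegfa lies on the minus strand and had 2 matches in the window of its downstream start (chr17:46025114-46025413). The window of its upstream start (chr17:46032328-46032627) had none. Vegfa thus stands among the 8 genes with a match only through the downstream window. The most matches, 6, were in 1 of the 2 windows of Egln2, a gene within 2-fold, and Hif1a, also within 2-fold on its brightest probe set, had 3. Arnt had 1 match, and the letters were not in the Vhl window. The number of matches and the size of the ratio did not run in the same order over these genes. Letters outside these windows were not searched, and a link between matches and ratios was not tested.

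Other genes of the pathway were taken from lists chosen with earlier results of these data known, and a few genes stand in more than 1 list. Of 45 other HIF targets outside glycolysis, 41 had a probe set and 32 were detected. Of these, 12 were at least 2-fold lower with triptolide and none was at least 2-fold higher, with a median log2 ratio of -0.77. For this list and those that follow, the values over all detected genes are 12.5% lower, 5.63% higher and a median of -0.16. The lowest were Cxcr4, a chemokine receptor gene (655.7 with triptolide and 5487.3 without, 8.37-fold lower), and the selenium-binding protein gene Selenbp1, whose place among HIF targets is less settled (104.9 against 810.0, at least 6.84-fold lower because the first lies under the floor). Further members, picked after their values were seen, were the adenylate kinase gene Ak4 (4.31-fold), Ankrd37 (4.24-fold), the MYC antagonist gene Mxi1 (4.10-fold) and the transcriptional repressor gene Bhlhe40 (4.04-fold), all lower and close in size to Bnip3 and Ddit4. The histone demethylase gene Kdm3a was 2.11-fold and Ndrg1 2.23-fold lower, and all 5 Ndrg1 probe sets were lower. Targets with ratios above 0 were also present. The transferrin receptor gene Tfrc had a log2 ratio of 0.58, the collagen prolyl hydroxylase gene P4ha1 of 0.35 and the peptide hormone gene Adm of 0.41, with its second probe set at -0.43. The collagen lysyl hydroxylase gene Plod1 was highest at 0.97, a bound with the signal without triptolide under the floor, and its second probe set went the other way. In the mitochondrial gene Higd1a the probe sets disagreed, from -0.29 to 1.43. Of 17 detected glycolytic HIF targets, 9 were lower by at least 2-fold, with none higher to that extent (median -1.04). They ran from Aldoc (9.38-fold lower) and Slc2a3 (8.49-fold lower) to Pkm and Pgam1 (log2 ratios of -0.04 and 0.06). The second Aldoc probe set had a log2 ratio of only -0.21, while the 4 of Slc2a3 lay between -4.83 and -3.09.

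Of 16 detected genes of HIF turnover and cofactors, 2 were lower by at least 2-fold, a share equal to the 12.5% of all detected genes, with none higher to that extent (median -0.21). Both were SIAH ubiquitin ligase genes, whose proteins mark EGLN enzymes, EGLN3 among them, for degradation: Siah2 was 2.45-fold lower and Siah1a 2.41-fold, with all of their detected probe sets past 2-fold. The highest were the coactivator gene Ep300 (log2 ratio 0.63) and Os9 (0.56). Hif1an, the gene of the asparaginyl hydroxylase that blocks HIF coactivator binding, had a log2 ratio of -0.30. Of the other HIF and partner subunit genes, 4 of 6 were detected. The aryl hydrocarbon receptor gene Ahr, whose protein also pairs with ARNT, was 3.81-fold lower. Hif3a had a log2 ratio of -0.90, with 1 of its 3 detected probe sets above 0. Arntl had one of 0.45, and Arnt2 was close to the floor. Epas1, which encodes HIF2 alpha, was under the floor on both arrays, with 50.5 with triptolide and 48.9 without. Among 15 detected genes of other 2-oxoglutarate oxygenases, the enzyme class of the EGLNs, 2 were lower by at least 2-fold and 2 higher, with a median of -0.35. These counts moved with the processing: none was lower by the median over probe sets, 1 after median centring or quantile normalization and 4 after either housekeeping scaling, and 1 was higher in 6 of the 11 alternatives. The histone demethylase gene Kdm5a was lower by 2.39-fold, but 4 of its 5 detected probe sets were above 0. The DNA demethylation gene Tet2 was 2.06-fold lower, with a log2 ratio of -0.19 on its second probe set. Kdm2a was higher by 3.42-fold, with 2 of 4 below 0, and Kdm4a at least 2.02-fold higher.

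Genes around the targets were taken from 3 further lists. In the list of mTORC1 control around DDIT4, 1 of 16 detected genes was at least 2-fold lower and 1 higher (median 0.12). By the median over probe sets, 2 were lower and none higher. The lower one was Eif4ebp1, a translation repressor gene under mTORC1 control (6.37-fold lower, its 3 probe sets between -3.40 and -0.32). The higher one was Txnip, which encodes a thioredoxin-binding protein that limits glucose uptake (2.25-fold higher, with 0.14 on its second probe set). Sesn3, a sestrin gene, had a log2 ratio of -0.92, and Tbc1d7 one of at least 0.80 with its second probe set at -0.58. Tsc1 and Tsc2, through whose complex DDIT4 acts, had log2 ratios of 0.11 and 0.49. In the mitophagy list, none of 14 detected genes was at least 2-fold lower, and 1, the LC3 gene Map1lc3b, was 2.09-fold higher with its 3 probe sets between 1.06 and 1.46 (median of the list -0.08). Rheb, the gene of the GTPase that activates mTORC1, had a log2 ratio of 0.77 and stands in both lists. The Map1lc3b call was lost after scaling on housekeeping genes. Map1lc3a and Bcl2l13 were lowest at -0.67 and -0.51, with 1 of 2 Bcl2l13 probe sets above 0. Of 9 other VEGF ligand and receptor genes, 2 were detected, each on 1 array only. Vegfb was at least 2.53-fold lower (18.9 with triptolide and 299.2 without), and the coreceptor gene Nrp1 at least 2.35-fold higher (278.5 against 79.2), with 0.10 on its second probe set. The receptor genes Flt1, Kdr and Flt4 were under the floor on both arrays.

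**Figure D3:**
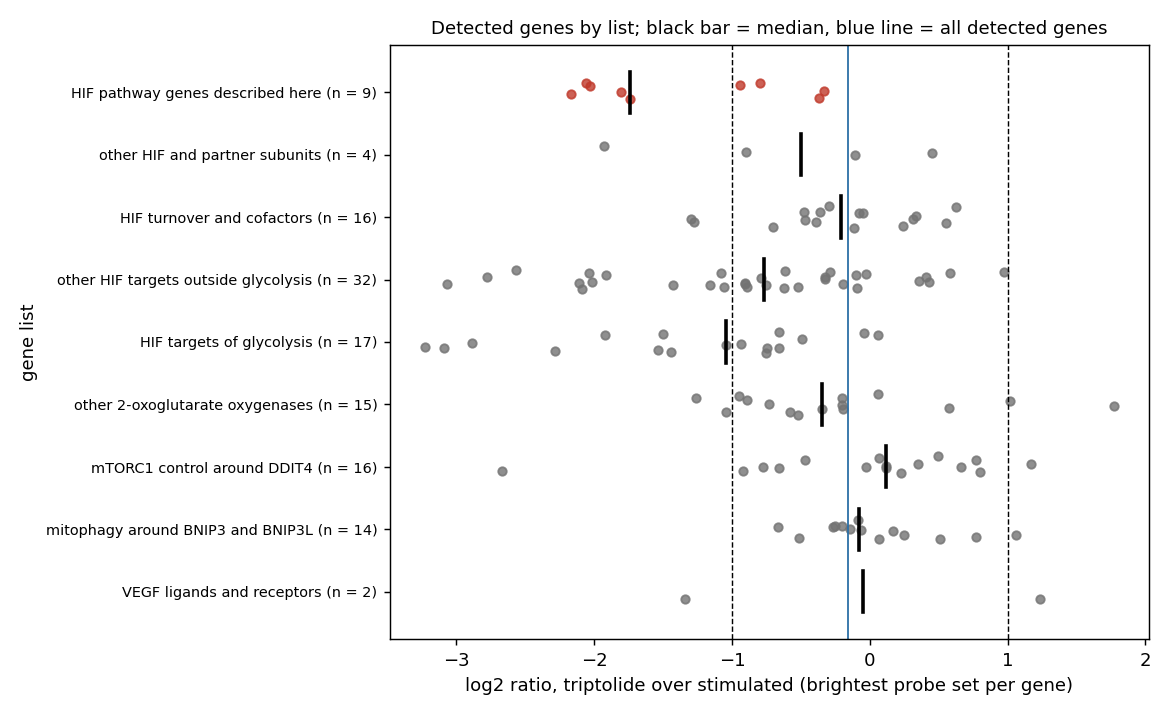
Log2 ratio of triptolide over stimulated for the 9 HIF pathway genes (red) and for the detected genes of 8 further lists (grey, 1 point per gene, jittered vertically); black bars are list medians, dashed lines mark 2-fold and the blue line is the median of all detected genes, -0.16. The 2 lists of HIF targets have medians of -0.77 and -1.04, and the mTORC1 and mitophagy lists have medians of 0.12 and -0.08.

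The 5 genes past 2-fold stayed past it whichever scaling, floor or probe set choice was used, as the plot of ratios by setting shows. Median centring and the 2 housekeeping scalings take 1 constant each (-0.18, 0.13 and 0.15) off the log2 ratios of the 9 genes. Such constants are too small to bring the 5 genes to the limit, so this outcome was fixed in advance. Quantile normalization moved all 9 ratios toward 0. The choice of probe sets mattered for Hif1a and Arnt.

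**Figure D4:**
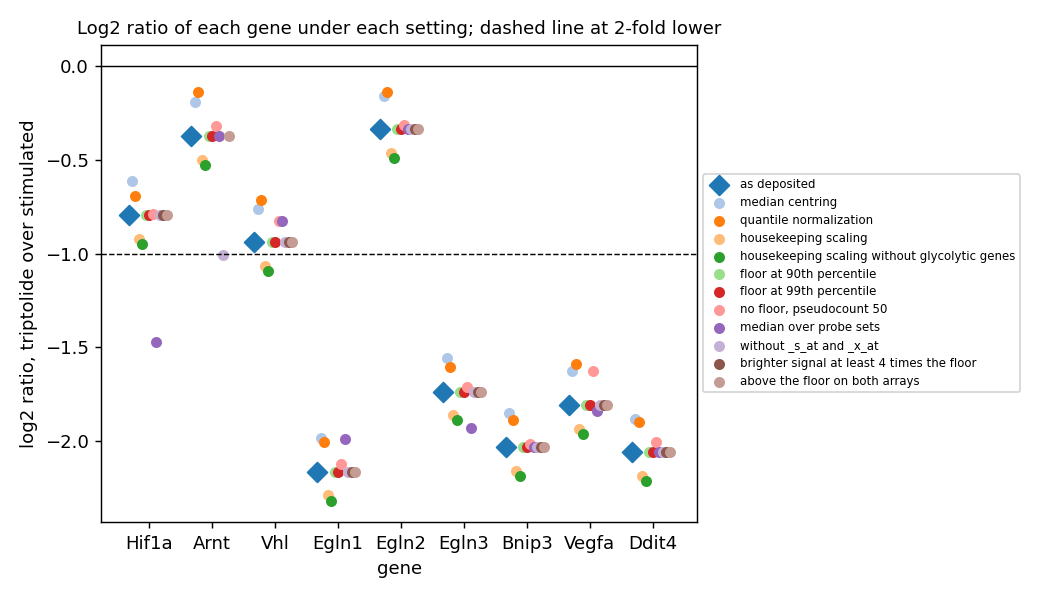
Log2 ratio of triptolide over stimulated for each of the 9 genes as deposited (blue diamonds) and under up to 11 other scalings, floors and choices of probe sets (circles); the dashed line marks 2-fold lower. Egln1, Egln3, Bnip3, Vegfa and Ddit4 stay between -2.32 and -1.56, while Hif1a, Arnt and Vhl cross the line under 1 or 2 settings and Egln2 under none.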

How the data were processed

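The authors deposited linear MAS5 signal intensities, 1 for each probe set on each array, per the submitters' processing notes; no MAS5 version or scaling setting is stated there. The first 100 listed probe sets had a 2% trimmed mean of 2000 on both arrays, so scaling appears to rest on those. Genes were assigned by the platform's annotation. By that annotation, 34945 probe sets had 1 symbol, 932 several and 9160 none. For 34741 of those with 1 symbol, the gene identifier was found in RefSeq (GRCm38.p6). The RefSeq symbol was used for these, whether or not it differed. Probe sets with several symbols entered no count. Signals were floored at 118 before log2 ratios were taken, and the probe set of highest mean log2 floored signal stood for its gene. Genes were counted by a fixed size of 2-fold, since 1 array per group allows no test; the number of arrays limits the precision. A fold with 1 side at the floor is a bound.

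The members and lists were chosen with earlier results of these data known. Named were all members, the 2 highest and 2 lowest genes of each list, and the genes of the VHL complex; others were picked after their values were seen. With 2 arrays, no likeness of pattern between genes can be measured. Alternatives were 3 other scalings, 2 other floors, a pseudocount of 50, the median over probe sets, probe sets without the suffixes _s_at and _x_at, genes of at least 4 times the floor, and limits of 1.5-fold and 3-fold; scaling without Pgk1 and a requirement of both arrays above the floor were added after seeing the data. The calculation was tested on simulated data. Python 3.11.15, numpy 2.4.6 and pandas 2.3.3 were used.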

Additional observations from a re-analysis of the deposited data

How the results depend on the processing

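Egln1, Egln3, Bnip3, Vegfa and Ddit4 were at least 2-fold lower with triptolide in each of 11 alternatives that kept the 2-fold limit, and at 3-fold as well. The count of lower genes was 6 where Vhl joined (both housekeeping scalings), where Hif1a joined (median over probe sets) and where Arnt joined (without the suffixes _s_at and _x_at), and 7 at 1.5-fold, with Hif1a and Vhl. No log2 ratio of the 9 genes changed sign. For Arnt this says little, since no setting took its probe set 1437042_at, at 0.82, on its own. Those of Hif1a and Arnt moved by more than the 0.49 between probe sets, to -1.47 and -1.01. The median of all detected genes was -0.16 as deposited, 0.00 after median centring and -0.27 after housekeeping scaling. Genes at least 2-fold lower on the whole array numbered 1370 as deposited and 900 after quantile normalization; 2955 were lower and 1470 higher at 1.5-fold, and 387 lower and 189 higher at 3-fold, by construction of the limit. Over all pathway lists, 28 of 114 detected genes were at least 2-fold lower, against 12.5% of all detected genes. At least 2-fold higher were 5 of the 114, against 5.63%. The lists were chosen with earlier results known, so nothing is read from these shares. The 5 became 2 with the median over probe sets. They became 3 with housekeeping scaling without Pgk1, with only genes 4 times above the floor, and with both arrays above it. The cause was not tested. Of 176 further list counts, 28 moved by over 1.5 times or between 0 and a larger count. No replicate could be left out. No paired analysis was possible because each group has 1 array.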
